A study of Mus musculus with 24 samples.

Results

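The question was whether tumours differed in immune gene expression when the agent added to entinostat and anti-CTLA-4 was anti-HER2 or anti-PD-1. The samples were picked by their names on the table: ENT + CTLA4 + aHer2 with 2 tumours (replicates 1 and 2, the anti-HER2 arm) and ENT + PD1 + CTLA4 with 4 (replicates 1, 2, 5 and 6, the anti-PD-1 arm). These are 6 of the 24 samples of the series. All came from female FVB neu-N mice, a strain tolerant to the neu antigen, aged 7 to 8 weeks when NT2.5 mammary tumour cells, a line from 1 spontaneous tumour, were put into the mammary fat pad. Treatment began on day 3 and lasted 3 weeks. Both arms received entinostat at 5 mg/kg daily by mouth and anti-CTLA-4 at 100 µg per mouse in 2 doses a week. The anti-PD-1 arm received anti-PD-1 at 100 µg per mouse in 2 doses a week in addition, and the anti-HER2 arm received anti-HER2 at 100 µg per mouse in 1 dose a week. The arms therefore differed in antibody and schedule together. The ENT + CTLA4 arm (4 tumours), which had neither added antibody, gave a further point of reference. The protocol says that experiments in this model were run both with and without anti-HER2, and grouping here follows the sample titles. The labels name whole tumour while the extraction text ends in the isolation of immune cells. Epithelial markers were strong in every sample: Epcam, Cdh1, Muc1 and Itgb4 summed to 6786 to 9313 in the anti-HER2 arm and 7496 to 10246 in the anti-PD-1 arm.

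Anti-HER2 antibodies bind the receptor on tumour cells, block its signalling and engage Fc receptors on natural killer (NK) cells and myeloid cells. Anti-PD-1 releases T cells from an inhibitory receptor whose ligand, PD-L1 (Cd274), is induced by interferon gamma. Anti-CTLA-4 acts on T cell priming and on regulatory T cells, and entinostat inhibits class I histone deacetylases.

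RNA molecules were counted with nCounter probes, and the deposited values are counts scaled to a common housekeeping level. Of 750 endogenous genes, 601 had a value of 20 or more in at least 4 of the 24 samples and were tested as log2(value + 1), which shrinks the fold change of genes near the pseudocount. A gene is called where limma's Benjamini-Hochberg adjusted p over the 601 genes was under 0.05. Recovered totals were 226863 and 311822 counts in the anti-HER2 arm and 308488 to 460522 in the anti-PD-1 arm. The scaling factors were 1.70 and 1.29 against 0.81 to 1.08, and did not overlap. Scaling therefore also raised the background: the mean of the negative controls was 7.86 and 6.62 in the anti-HER2 arm and 4.16 to 5.68 in the anti-PD-1 arm. A gene is said to be above background in a sample where it exceeded the mean + 2 SD of that sample's scaled negative controls, which was 16.9 and 13.6 in the anti-HER2 arm and 8.54 to 12.5 in the anti-PD-1 arm. All 6 samples ran on 1 cartridge. The median log2 difference over the 601 genes was 0.18 in favour of the anti-HER2 arm, and 69.7% of genes were above 0, so the differences below are to be read against 0.18. Centring each sample on its own median moved that shift to 0.04, quantile normalization to -0.01, edgeR to -0.03 and DESeq2 to -0.07. The labels name no separate animals, and p-values measure the spread between these samples.

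In all, 19 genes (3.16% of those tested) were called between the arms, 14 higher with anti-HER2 (2.33%) and 5 lower (0.832%). The higher genes were A2m, Sh2d1b1, Klra2, Klrb1, Cd160, S100a8, Ccl3, Nos2, Bcl6, Lif, Ceacam1, Tgfb2, Tgfbr1 and Cd3eap, and the lower ones were Ctsw, St6gal1, Notch1, Il34 and Itgb3. The groups did not overlap for 18 of the 19, S100a8 being the exception, against 112 of all 601 genes higher without overlap (18.6%) and 17 lower (2.83%). All 19 kept their direction in every alternative in which they were tested. The genes were chosen on this same difference, and several alternatives left it unchanged by construction. The shared direction was thus largely fixed in advance. The calls themselves did not hold as widely. A fit on the 2 arms alone, or on the arms of the second cartridge alone, called 0 genes (70 and 98 at an unadjusted p under 0.05, against 113 in the full fit, 93 higher (15.5%) and 20 lower (3.33%)), so the calls rest on a spread shared with the samples of other arms. Calls numbered 0, 5, 35 and 17 without anti-PD-1 replicate 5, 6, 1 or 2, and 21 and 8 without anti-HER2 replicate 1 or 2. On the recovered counts edgeR called 8 higher and 1 lower, and DESeq2 called 14 higher and 11 lower. Of the 19 genes, 6 were among those edgeR called, 9 among those of DESeq2, 6 among those called with median rescaling and 2 with quantile normalization. With 2 samples against 4 there are 15 ways to divide the samples, and an exact two-sided permutation test of a single gene cannot go below 0.133.

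**Figure D1:**
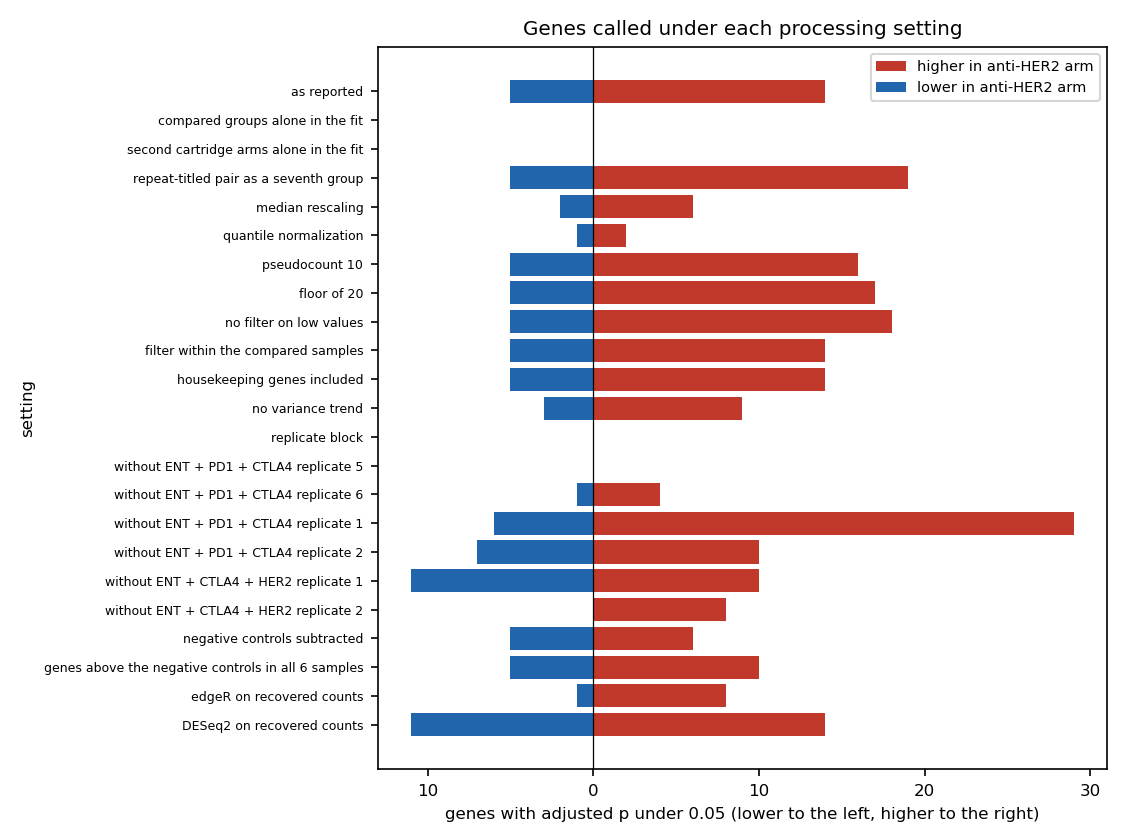
Number of genes with adjusted p under 0.05 under each setting (rows), higher in the anti-HER2 arm to the right and lower to the left of 0. The count is 14 higher and 5 lower as reported, and 0 when the 2 arms are fitted alone, with the replicate block, or without ENT + PD1 + CTLA4 replicate 5.

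**Figure D2:**
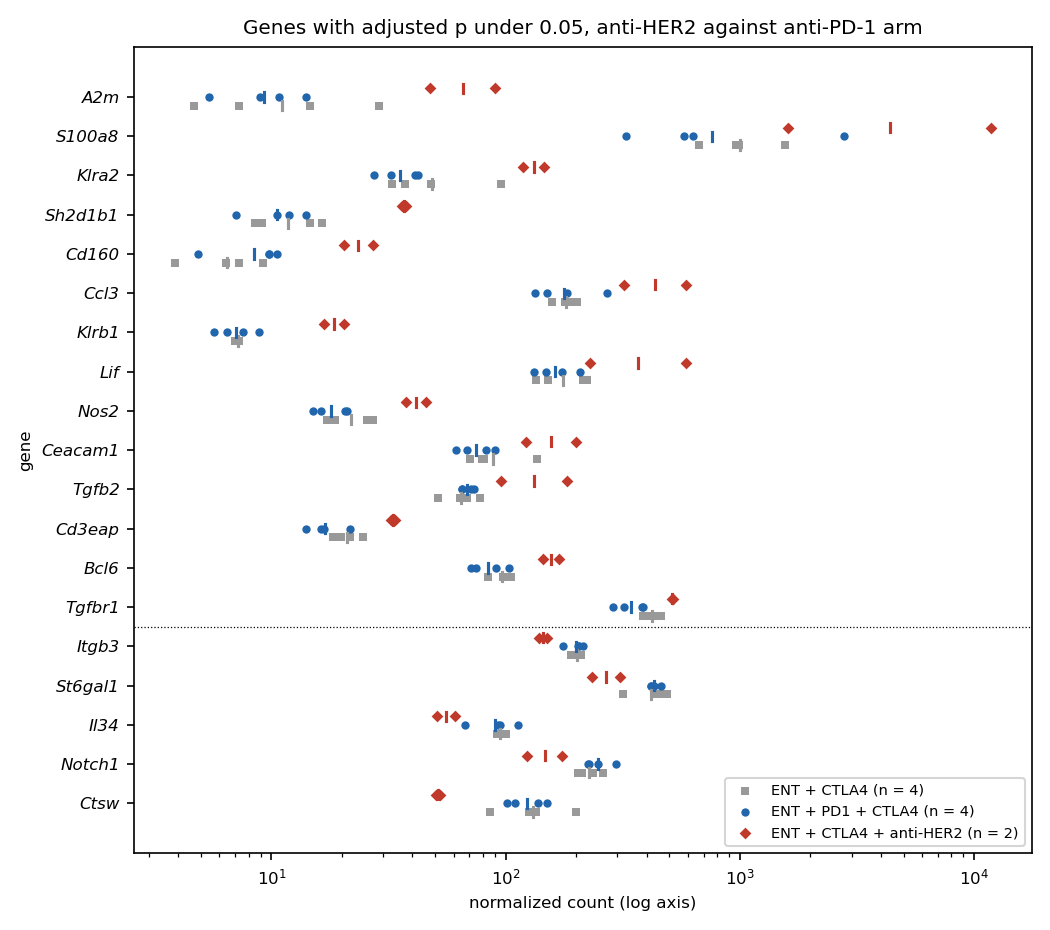
Normalized count (log axis) of the 19 called genes in each tumour of the anti-HER2 arm (diamonds, n = 2), the anti-PD-1 arm (circles, n = 4) and the ENT + CTLA4 arm (squares, n = 4); vertical ticks are group means on the log2(value + 1) scale, and the dotted line parts the 14 higher genes from the 5 lower. In 18 of 19 genes the diamonds lie outside the range of the circles, and in S100a8 they overlap.

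Among the called genes with the smallest p was A2m, which encodes alpha-2-macroglobulin, a secreted inhibitor of proteases. It measured 47.6 and 90.4 in the anti-HER2 arm and 5.41, 14.1, 8.93 and 10.8 in replicates 1, 2, 5 and 6 of the anti-PD-1 arm, the order used throughout. Both anti-HER2 tumours stood well above all 4 others, of which 2 were above background. The log2 difference was 2.69 ± 0.53 (SE, 95% interval 1.57 to 3.81, adjusted p = 0.0216). Without anti-PD-1 replicate 5 the adjusted p was 0.0564, and without anti-HER2 replicate 2 it was 0.102. With values under 20 raised to 20 the difference was 1.71, below the 2.52 of S100a8 in that setting.

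Klra2, a Ly49 family lectin-like receptor placed on the list of NK receptors and genes, measured 119 and 146 against 41.1, 27.3, 32.5 and 42.2. Which cells of the tumours carried it was not measured. All 6 samples were above background, and the 2 arms were separated by a wide gap. Its log2 difference of 1.87 ± 0.38 (SE, adjusted p = 0.0216) was called in 17 of 22 alternatives, more than any other gene. Sh2d1b1, which encodes the NK cell signalling adaptor EAT-2, measured 37.4 and 36.2 against 14.1, 7.05, 10.6 and 11.9, a log2 difference of 1.70 ± 0.35. The anti-HER2 tumours were nearly equal, and 2 of the 4 anti-PD-1 tumours were above background. With values under 20 raised to 20 its difference was 0.88 (adjusted p = 0.0300). Cd160, a receptor of NK cells and cytotoxic T cells, measured 20.4 and 27.1 against 9.73, 10.6, 4.87 and 9.73, and Klrb1, a lectin-like NK receptor, 20.4 and 16.8 against 7.57, 8.82, 5.68 and 6.49. For these weak genes the anti-PD-1 arm was above background in 1 of 4 tumours for Cd160 and in 0 of 4 for Klrb1, so the sizes of their differences, 1.38 and 1.28 on the log2 scale, have no measured lower level. Neither call held with values under 20 raised to 20, where the differences were 0.23 (adjusted p = 0.606) and 0.01 (adjusted p = 0.983).

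Across the list of NK receptors and genes, 24 were on the table and 15 were tested, 9 being too weak. Of the 15, 3 were called higher (2.33% over all genes) and none lower, 9 were higher without overlap (18.6% over all genes), and the median log2 difference was 0.97 against 0.18 for all genes. Only 3 of the 15 were above background in all 6 samples, and their median was 0.70. With every value under 20 raised to 20, the list median fell 0.12 below that of all genes. In the other alternatives run, including the scalings, it stayed above. Of the 15, 7 are named for the Ly49 family, whose members are close in sequence, so the probe names may not separate them fully. The receptors that mark NK cells most directly did not pass: Ncr1, the activating receptor NKp46, measured 10.2 and 12.9 against 24.9, 9.70, 10.6 and 18.4, at background in both anti-HER2 tumours. Klrk1, the activating receptor NKG2D, measured 20.4 and 29.7 against 17.3, 11.5, 8.93 and 11.9 (adjusted p = 0.180). The summed NK cell markers Ncr1, Klrk1, Klrd1 and Il2rb ranged from 76.5 to 130.4 in the anti-HER2 arm and 51.1 to 253.1 in the anti-PD-1 arm. In bulk samples, a change in the number of cells of a type and a change in RNA per cell cannot be told apart.

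The lowest gene in the anti-HER2 arm relative to the anti-PD-1 arm, among those called, was Ctsw, which encodes cathepsin W, a protease of NK and cytotoxic T cells. It measured 52.7 and 50.4 against 137, 110, 150 and 102, so both anti-HER2 tumours were at about the same level and below every anti-PD-1 tumour. The log2 difference was -1.24 ± 0.27 (SE, adjusted p = 0.0232). Ctsw thus moved opposite to Klra2, Klrb1 and Cd160, the called members of the list of NK receptors and genes. Gzma, the protease granzyme A, did not pass and measured 28.9 and 25.8 against 24.9, 20.3, 17.9 and 11.9, higher without overlap (log2 difference 0.57, adjusted p = 0.465). Of the 3 cytotoxic genes tested, 2 were above 0 (69.7% over all genes). The median was 0.57, which is the value of Gzma itself, against 0.18 for all genes, and the mean was -0.03. Relative to the all-gene median, the list median ran from -1.40 to 0.56 over the alternatives. Other cytotoxic genes were near background: Gzmb measured 6.80 and 10.3 against 4.06 to 7.57, Prf1 8.50 and 10.3 against 3.25 to 15.1, and neither was tested. Ifng, which encodes interferon gamma, was tested and measured 13.6 and 12.9 against 11.9, 11.5, 4.06 and 8.65, at background in both anti-HER2 tumours (adjusted p = 0.694).

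Most genes of the interferon gamma axis, a list that also holds Ifng, Ifngr1 and Cxcr3, were higher with anti-HER2 in the measured values. None of the 10 tested was called (3.16% over all genes). Cxcl9, a chemokine that draws CXCR3-bearing lymphocytes, measured 61.2 and 116 against 20.6, 4.41, 14.6 and 10.8. Both anti-HER2 tumours exceeded every anti-PD-1 tumour, 2 of which were above background (log2 difference 2.82 ± 0.88, adjusted p = 0.0761). Irf1, the transcription factor that carries much of the interferon gamma response, measured 782 and 1219 against 667, 559, 599 and 542, far above background throughout. Its log2 difference was 0.73 ± 0.21 with an adjusted p of 0.0622. Gbp5, an interferon-induced guanylate-binding protein, measured 61.2 and 47.8 against 30.3, 6.17, 18.7 and 16.2, and Cxcl10 49.3 and 81.3 against 34.6, 14.99, 27.6 and 34.6. Groups did not overlap for either, and neither passed (adjusted p = 0.116 and 0.143). The whole list had 8 of 10 genes above 0 (69.7% over all genes), 6 higher without overlap (18.6% over all genes), and a median of 0.69. That median lay 0.45 to 0.66 above the all-gene median in every alternative run.

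The promoters of 3 of these genes, those with more than 1 of the searched motifs, show the sites through which such genes are commonly described as regulated. The 250 bases before each start site are given 5′ to 3′ on the strand of the gene, from RefSeq on GRCm38.p6, with motif matches in capitals. The motifs were the gamma-activated site (GAS, TTCNNNGAA), the interferon-stimulated response element (ISRE, a pair of TTTC repeats spaced by 2 free bases) and the NF-kappaB site (kB), each searched on both strands. Irf1 lies on the plus strand (chr11:53769764-53770013), Cxcl10 on the minus strand (chr5:92348890-92349139) and Gbp5 on the plus strand (chr3:142496684-142496933). Irf1 had 2 promoters listed, and one with the most matches is shown.
Irf1: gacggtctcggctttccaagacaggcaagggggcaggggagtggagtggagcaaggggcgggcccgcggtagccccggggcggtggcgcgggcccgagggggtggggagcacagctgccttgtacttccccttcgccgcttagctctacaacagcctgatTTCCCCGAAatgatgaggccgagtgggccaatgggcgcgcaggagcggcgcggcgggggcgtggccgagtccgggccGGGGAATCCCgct
Cxcl10: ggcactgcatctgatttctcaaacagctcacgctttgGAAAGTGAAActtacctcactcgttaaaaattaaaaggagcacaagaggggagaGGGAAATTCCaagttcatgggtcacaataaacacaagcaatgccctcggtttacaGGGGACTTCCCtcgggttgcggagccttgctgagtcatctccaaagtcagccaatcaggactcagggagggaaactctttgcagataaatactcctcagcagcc
Gbp5: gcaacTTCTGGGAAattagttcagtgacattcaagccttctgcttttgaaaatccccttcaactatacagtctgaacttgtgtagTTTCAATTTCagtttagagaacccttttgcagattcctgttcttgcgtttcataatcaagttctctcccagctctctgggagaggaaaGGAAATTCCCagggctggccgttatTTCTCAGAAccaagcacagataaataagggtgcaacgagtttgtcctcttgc
In order of their capitals, Irf1 holds a GAS and a kB match, Cxcl10 an ISRE and then kB matches, a pair of which overlap in the last run, and Gbp5 a GAS, an ISRE, a kB and a second GAS match. Of the 10 genes of the list, 8 had a promoter in the table, and 3 of these held each motif. For scale, a GAS match occurred in 7.02% of all 32851 promoters and 10.9% of the 534 promoters of tested genes, an ISRE match in 2.98% and 6.55%, and a kB match in 7.25% and 14.8%. Among the 19 called genes 14 had a promoter, and 3 held a GAS, 0 an ISRE and 2 a kB match. A gene was counted where any of its listed promoters held the motif, while the shares are of single promoters. The counts and the shares are therefore not on the same scale. A match describes the letters only.

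PD-L1 itself, the ligand that anti-PD-1 prevents from acting, was measured as Cd274 at 133 and 125 in the anti-HER2 arm and 68.1, 32.6, 48.7 and 58.4 in the anti-PD-1 arm. The groups did not overlap, and the difference of 1.34 ± 0.53 on the log2 scale did not pass (adjusted p = 0.158). Pdcd1, which encodes PD-1, was too weak to test at 8.50 and 23.2 against 7.31 to 19.5. Ctla4, the target shared by both arms, measured 40.8 and 58.1 against 112, 14.1, 15.4 and 30.3 (adjusted p = 0.792), the highest and the lowest tumour both being in the anti-PD-1 arm. Of 12 inhibitory checkpoints and ligands tested, none was called (3.16% over all genes), and the median was 0.07 against 0.18 for all genes. Without overlap 1 was higher (18.6% over all genes) and 1 lower (2.83%).

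Type I interferon genes, the antiviral programme, numbered 22 tested of 28 on the table. None was called (3.16% over all genes), and 20 were above 0 (69.7% over all genes). Without overlap 9 were higher (18.6% over all genes), and the median was 0.41. Oas3, a sensor of double-stranded RNA, had the smallest p of these, at 22.1 and 18.1 against 10.8, 9.70, 4.06 and 7.57 (adjusted p = 0.0691), with all 4 anti-PD-1 tumours at background. Ifit3, Ifit1 and Rsad2, which encode antiviral effectors, had log2 differences of 1.43, 0.86 and 0.81 with an adjusted p of 0.127 each. For the 14 genes of the list above background in all 6 samples the median was 0.19, beside 0.16 for all genes so chosen.

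Antigen presentation through MHC class I showed small differences in 1 direction. All 12 tested genes were above 0 (69.7% over all genes), with a median of 0.38, and none was called (3.16% over all genes). Only 1 was higher without overlap, against 18.6% of all genes. H2-K1, a classical class I heavy chain, measured 1477 and 2115 against 1747, 1128, 1264 and 1278, and H2-D1, another, 4426 and 5545 against 6092, 3002, 4149 and 3460; in both, replicate 1 of the anti-PD-1 arm lay above at least 1 anti-HER2 tumour. Without anti-HER2 replicate 2 the list median was 0.15 against 0.14 for all genes. The immunoproteasome, which cuts peptides for class I, was led by Psmb9 at 119 and 125 against 83.3, 45.0, 52.0 and 47.6. Its groups did not overlap, and the log2 difference of 1.13 ± 0.31 had an adjusted p of 0.0549. Class II genes overlapped throughout. All 8 tested were likewise above 0, with a median of 0.41 and none called (3.16% over all genes). H2-Ab1, a class II beta chain, measured 2595 and 5314 against 4429, 1282, 2137 and 2860 (adjusted p = 0.728).

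**Figure D3:**
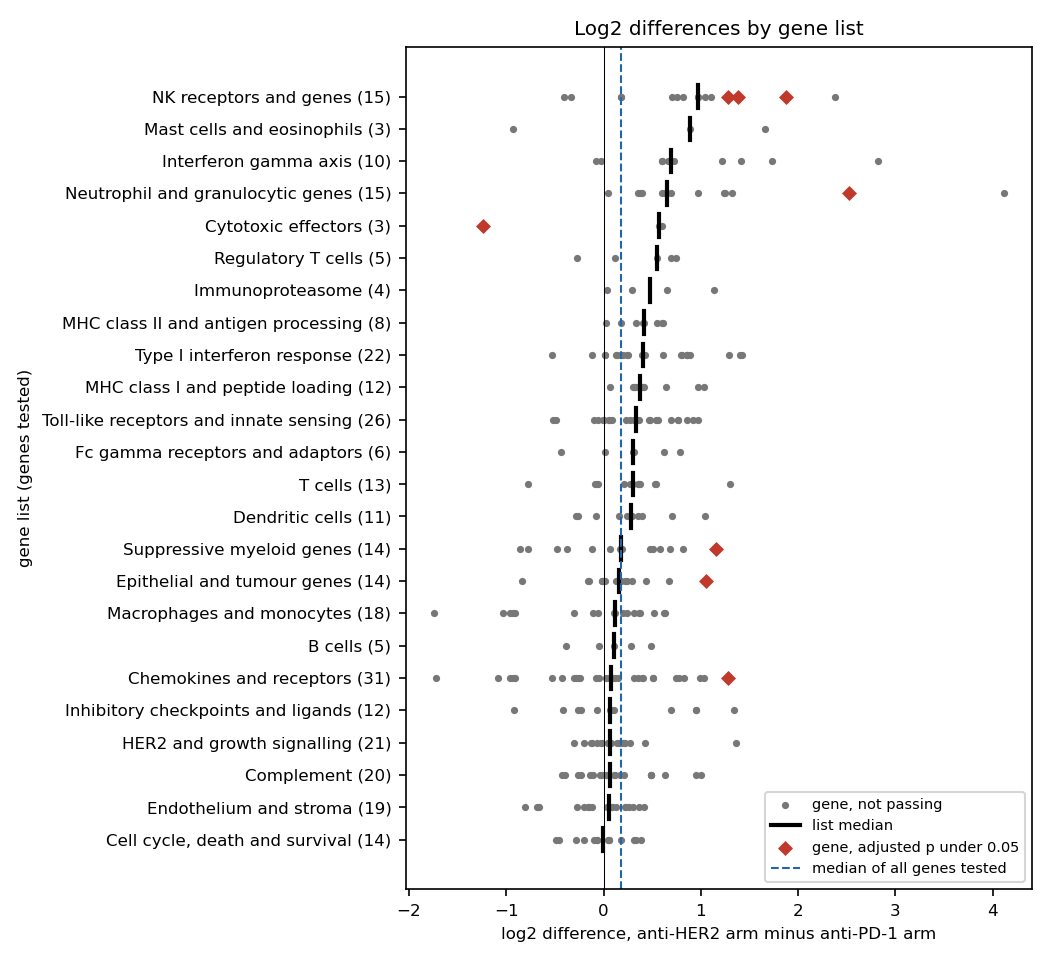
Log2 difference (anti-HER2 arm minus anti-PD-1 arm) of each tested gene in 24 gene lists, ordered by list median (black ticks), with called genes as red diamonds and the all-gene median of 0.18 as a dashed line. The medians run from -0.01 for cell cycle, death and survival to 0.97 for NK receptors and genes.

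Neutrophil and granulocytic genes were all above 0 among the 15 tested, with a median of 0.65, but the size differed greatly between the anti-HER2 tumours. S100a8, a subunit of calprotectin and among the most abundant neutrophil proteins, measured 11838 and 1607 against 2776, 578, 328 and 629. Anti-HER2 replicate 1 stood far above all others, while anti-PD-1 replicate 1 exceeded anti-HER2 replicate 2. The log2 difference was 2.52 ± 0.66 (SE, adjusted p = 0.0447), and without anti-HER2 replicate 1 it was 1.08 (adjusted p = 0.477). Camp, the granule peptide cathelicidin, measured 600 and 32.3 against 110, 1.76, 2.44 and 3.24, and did not pass (adjusted p = 0.0567); 1 of the 4 anti-PD-1 tumours was above background. Csf3r, the receptor for the neutrophil growth factor G-CSF, measured 241 and 128 against 91.9, 74.1, 56.0 and 77.9 without overlap (adjusted p = 0.0650). Cxcr2, the receptor that draws neutrophils from blood, measured 304 and 119 against 125, 83.8, 54.4 and 70.3 (adjusted p = 0.0691). In total 1 of 15 genes was called against 2.33% of all genes in this direction, 7 had an unadjusted p under 0.05 against 15.5%, and 4 were higher without overlap against 18.6%. Without anti-HER2 replicate 1 the list median was 0.41, against 0.24 for all genes.

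Other called myeloid and inflammatory genes were more even. Nos2, inducible nitric oxide synthase, measured 45.9 and 37.4 against 20.6, 14.99, 21.1 and 16.2, all above background, with a log2 difference of 1.16 ± 0.26 (adjusted p = 0.0323). Ccl3, a chemokine for monocytes and lymphocytes, measured 588 and 321 against 271, 151, 183 and 134, a difference of 1.28 ± 0.34. Both anti-HER2 tumours were above the range of the others, replicate 2 by a small margin, and without replicate 1 the difference was 0.85 (adjusted p = 0.319). Of 31 chemokines and receptors Ccl3 was the only one called, against 2.33% of all genes called higher. Without overlap 5 were higher and 1 lower, against 18.6% and 2.83% of all genes. The list median was 0.07, beside 0.18 for all genes. Arg1, arginase 1, which marks suppressive macrophages, measured 282 and 103 against 421, 218, 309 and 260 and did not pass (log2 difference -0.77, adjusted p = 0.449).

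Macrophage and monocyte genes divided, 10 above 0 (69.7% over all genes) and 8 below of 18 tested, with none called (3.16% over all genes). Their median was 0.12 against 0.18 for all genes, and 2 were higher without overlap (18.6% over all genes). Cd163, a haemoglobin scavenger receptor of tissue macrophages, measured 28.9 and 11.6 against 147, 17.6, 110 and 56.2 (log2 difference -1.74, adjusted p = 0.140). It was at background in anti-HER2 replicate 2, so the size of its difference has no measured lower level there. Cd14, the co-receptor for lipopolysaccharide, measured 2669 and 2141 against 1855, 1053, 1730 and 1665, without overlap (log2 difference 0.63, adjusted p = 0.206). Cd163 and Cd14 thus lay on opposite sides of 0. Summed macrophage markers were 1451 and 1434 in the anti-HER2 arm, inside the 681 to 2372 of the anti-PD-1 arm.

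The Fc gamma receptors bind the constant part of antibodies such as anti-HER2, whose isotype control was a mouse IgG2a. Fcgr4, an activating receptor for that isotype, measured 133 and 132 against 81.1, 61.7, 81.2 and 83.3. The groups were apart, and the difference of 0.78 ± 0.29 on the log2 scale did not pass (adjusted p = 0.137). Fcgr1, the high-affinity receptor, measured 165 and 156 against 137, 60.8, 129 and 107, also apart (adjusted p = 0.345). Fcgr3, another activating receptor, measured 209 and 177 inside the anti-PD-1 range of 97.9 to 275, and its difference of 0.02 changed sign under 4 of the scalings. Fcgr2b, the inhibitory receptor, measured 754 and 1019 against 578 to 1855, and Fcer1g, the shared signalling chain, 440 and 368 against 261 to 446. None of the 6 tested genes of this group was called (3.16% over all genes). Without overlap 2 were higher, against 18.6% of all genes.

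T cell genes showed no call among 13 tested, where 3.16% of all genes were called, and the anti-PD-1 arm held both extremes. On the mean of the list, anti-PD-1 replicate 1 was 2.54 log2 units above its arm's mean and replicate 2 was 1.23 below, with the anti-HER2 tumours at -0.17 and 0.68. Cd4 measured 10.2 and 20.7 against 96.3, 3.53, 9.74 and 14.1, and Cd8a, too weak to test, 8.50 and 11.6 against 51.9, 3.53, 6.50 and 3.24. Foxp3, the regulatory T cell factor, was likewise too weak, at 6.80 and 15.5 against 1.62 to 21.6. The list median of 0.30 became 1.20 without anti-PD-1 replicate 1 and -0.18 without replicate 2, so its direction depended on which tumour was kept, and it was -0.60 with edgeR, -0.62 with DESeq2 and -0.23 with quantile normalization. Replicates 1 and 2 of the anti-PD-1 arm differed by over 1 log2 unit in 240 of 601 genes, replicates 5 and 6 in 27, and the anti-HER2 pair in 85.

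**Figure D4:**
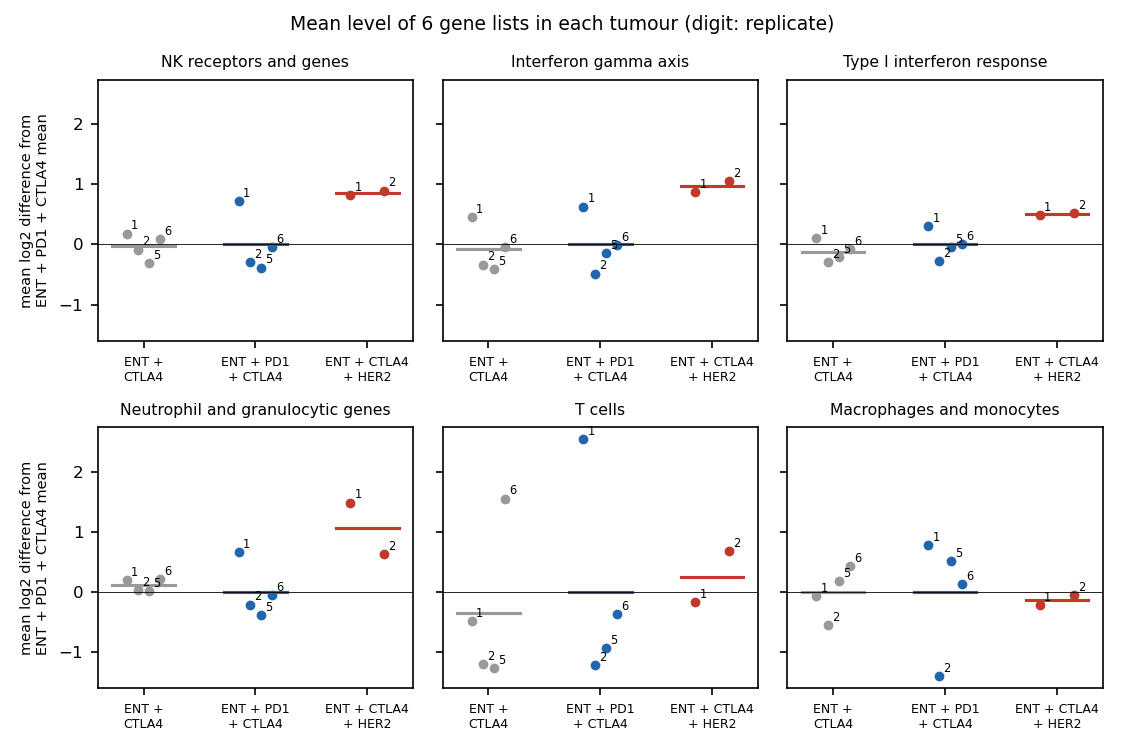
Mean log2 level of 6 gene lists in each tumour, relative to the mean of the ENT + PD1 + CTLA4 arm, for ENT + CTLA4 (grey, n = 4), ENT + PD1 + CTLA4 (blue, n = 4) and ENT + CTLA4 + HER2 (red, n = 2); lines are group means and digits are replicate numbers. NK receptors are at 0.82 and 0.90 in the anti-HER2 tumours and at 0.72 in anti-PD-1 replicate 1, while T cells run from -1.23 to 2.54 within the anti-PD-1 arm.

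The remaining called genes are of mixed function. Bcl6, a transcriptional repressor of lymphocyte differentiation, measured 168 and 145 against 90.9, 103, 71.5 and 74.6 (log2 difference 0.88 ± 0.19, adjusted p = 0.0232). Tgfb2, a ligand of the TGF-beta family, measured 95.2 and 182 against 73.5, 71.4, 65.0 and 64.9, and Tgfbr1, the type I receptor for such ligands, 520 and 511 against 382, 288, 385 and 321. Ligand and receptor were thus both above every anti-PD-1 tumour, with log2 differences of 0.93 ± 0.22 and 0.59 ± 0.15. Tgfb2 was at 1.40 without anti-HER2 replicate 1 and at 0.47 (adjusted p = 0.436) without replicate 2. Lif, a cytokine of the interleukin-6 family, measured 229 and 591 against 148, 207, 132 and 174, the lower anti-HER2 tumour lying just above the highest of the other arm. Its log2 difference of 1.17 ± 0.32 was 0.49 (adjusted p = 0.595) without anti-HER2 replicate 2. Ceacam1, an adhesion molecule of epithelium and leukocytes, measured 122 and 200 against 61.7, 89.9, 68.2 and 82.2, and its log2 difference of 1.06 ± 0.28 was 0.70 (adjusted p = 0.423) without anti-HER2 replicate 2. Cd3eap, a subunit of RNA polymerase I, measured 32.3 and 33.6 against 14.1, 16.8, 16.2 and 21.6 (log2 difference 0.92 ± 0.23), the anti-HER2 tumours being almost equal.

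On the lower side, Notch1, a cell fate receptor, measured 173 and 124 against 227, 297, 247 and 225. St6gal1, which adds sialic acid to glycans, measured 308 and 234 against 416, 431, 462 and 420. Their log2 differences were -0.75 and -0.69. Without anti-HER2 replicate 1 these were -0.99 and -0.88, and without replicate 2 they were -0.51 and -0.49. Il34, a ligand of the macrophage growth factor receptor CSF1R, measured 51.0 and 60.7 against 67.1, 94.3, 113 and 93.0. Csf1, the other ligand of that receptor, was on the opposite side at 433 and 510 against 349, 206, 385 and 349, without overlap and without passing (adjusted p = 0.193). Itgb3, the beta-3 integrin of platelets and vessels, measured 139 and 150 against 176, 213, 204 and 205, the smallest called difference at -0.46 ± 0.12 (adjusted p = 0.0418). All 5 lower genes were above background in all 6 samples, as were 10 of the 14 higher ones. With median rescaling Ctsw stayed called, while limma's adjusted p for Notch1, St6gal1, Il34 and Itgb3 was 0.191, 0.225, 0.191 and 0.333. Quantile normalization kept none of the 5 (limma adjusted p = 0.0702 to 0.299). DESeq2 called Ctsw, St6gal1, Notch1 and Il34, and not Itgb3 (adjusted p = 0.0896). Since raised background works toward higher values in the anti-HER2 arm, 2 further settings were run. With each sample's negative controls subtracted, 11 genes were called, all among the 19: 6 of the 14 higher and 5 of the 5 lower. Among genes above background in all 6 samples, 15 were called, all among the 19: 10 higher and 5 lower. That filter left the differences of the kept genes unchanged, so it does not test the raised background in them. The part of the raised background in the weak genes that did not pass was not tested.

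Erbb2, which encodes the target of anti-HER2 in the tumour cell, measured 435 and 581 in the anti-HER2 arm and 376, 622, 369 and 402 in the anti-PD-1 arm. The groups overlapped, and the log2 difference was 0.22 with a 95% interval of -0.22 to 0.66 (adjusted p = 0.682), turning to -0.03 with edgeR and -0.07 with DESeq2. The epithelial marker Epcam measured 6623 and 5004 against 5418, 6927, 5719 and 4854 (log2 difference 0.02, interval -0.38 to 0.42). Egfr, the sister receptor of HER2, had an adjusted p of 0.982. None of the 21 growth signalling genes tested was called (3.16% over all genes), and 3 were higher without overlap (18.6% over all genes). Their differences ran from -0.31 to 1.36, with a median of 0.07 against 0.18 for all genes. The labels do not say which species' Erbb2 the probe detects.

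The ENT + CTLA4 arm, without an added antibody, shows on which side of it each arm lay. Both comparisons with it use the same 4 tumours and are given side by side, with no test of one against the other. Of the 14 called higher genes, 13 had both anti-HER2 tumours above all 4 ENT + CTLA4 tumours, against 23.1% of all tested genes. The exception was Ceacam1, at 136 in ENT + CTLA4 replicate 1 and 79.2, 81.2 and 70.7 in the other 3 tumours. The anti-PD-1 arm lay wholly below ENT + CTLA4 in 1 of the 14, Tgfbr1, against 1.5% of all genes. All 5 lower genes had both anti-HER2 tumours below all 4, against 6.49% of all genes. The genes were chosen with the anti-HER2 samples, so nothing is read from these shares. For Klra2 the ENT + CTLA4 tumours measured 95.4, 47.9, 32.9 and 37.3, and the anti-HER2 arm was 1.42 above them and the anti-PD-1 arm -0.46 relative to them on the log2 scale. For Ctsw they measured 86.2, 134, 126 and 199, and the 2 arms stood at -1.33 and -0.08. For Tgfbr1 they measured 388, 404, 460 and 438, and the arms stood at 0.29 and -0.30, with ENT + CTLA4 between the arms.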

How the data were processed

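RNA of 24 tumours was counted with nCounter probes of a mouse immune panel. The deposited values are normalized signal on a linear scale, each a count times 1 factor per sample: dividing by it returned whole numbers for 100% of values above 1 (tolerance 0.05), with 82 values listed at exactly 1. Control rows hold raw counts, per the file headers. The submitters' processing notes name limma, and nothing used here gives its version or the normalization method. The title names the PanCancer Immune panel and the protocol a myeloid panel, and the table was used as it stands.

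Values entered as log2(value + 1). Limma 3.58.1 (R 4.3.3, lmFit, eBayes with trend) was fitted over 22 samples in 6 groups with no covariate, leaving out 2 samples whose titles repeat others. Replicate numbers did not enter as pairs. Same-numbered samples of the 2 arms had correlations of -0.09 and -0.26. These cannot decide whether samples were paired, because the deviations of 2 anti-HER2 samples from their mean mirror each other. Alternatives were scaling, filter, pseudocount, floor, variance trend, samples fitted, left-out replicates, edgeR 4.0.16 and DESeq2 1.42.0 on the recovered counts, and 2 treatments of background added after seeing the data. On simulated data with 200 of 601 genes changed, 78% of 2-fold and 100% of 4-fold changes were recovered, and 6.32% of calls were false. Every simulated gene had the same fixed dispersion, without the differences between whole tumours seen here. These rates therefore do not carry over to the comparison of the 2 arms.

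Named genes are all called genes, a fixed set of targets, receptors and markers, and up to 4 members of each of 24 gene lists with the smallest p. The comparison, genes and lists were chosen with earlier results of these data known. B2m is not on the table used here.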

Additional observations from a re-analysis of the deposited data

Results flagged for a closer look

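Within the anti-PD-1 arm, 1 of the 4 tumours lay far from the other 3 in 10 of 83 genes examined. Chance alone sets about 1 in 20 groups of this size apart, and no explanation was weighed. Replicate 1 was the highest for Camp (110), the chemokine receptor-like gene Ccrl2 (1117), the inhibitory receptor Btla (58.4), the T cell transcription factor Tcf7 (309) and Klra7, a Ly49 receptor (10.8). Replicate 2 was the lowest for Fcgr4 (61.7), Csf1 (206) and Cybb, the phagocyte oxidase subunit (199), and the highest for Erbb2 (622). Replicate 5 was the lowest for Cd160 (4.87). Of these 10 genes only Cd160 was called between the arms.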

How the results depend on the processing

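The number of genes called, 19 as reported, was 8 with median rescaling, 3 with quantile normalization, 12 without a variance trend, 9 with edgeR, 11 with negative controls subtracted, 0 with the compared arms or the second cartridge's arms alone, and 0 to 35 with 1 replicate left out. The replicate block on shared numbers, which rest on a number alone, called 0 genes (122 at an unadjusted p under 0.05), and no count without overlap can be had from it. Genes higher without overlap (112) numbered 59 with median rescaling, 48 with quantile normalization, 71 with DESeq2 and 121 to 207 with 1 replicate left out. Genes lower without overlap (17) numbered 38 with quantile normalization, 35 with edgeR, 43 with DESeq2 and 20 to 74 with 1 replicate left out, where smaller groups overlap less. Lists with a median above that of all genes numbered 14 of 24, and 13 to 17 with 1 replicate left out.

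Among the named genes, sign changes occurred in genes that were not called, and their cause was not tested. Epcam was -0.12 with median rescaling, -0.13 with the replicate block, -0.18 with edgeR, -0.22 with DESeq2, and -0.18 to 0.22 with 1 replicate left out. Fcgr3 was -0.12 with median rescaling, -0.080 with quantile normalization, -0.18 with edgeR, -0.21 with DESeq2, and -0.30 to 0.20 with 1 replicate left out. Ifng, at 0.60 as reported, was -0.055 with quantile normalization. Erbb2 was -0.034 with edgeR and -0.073 with DESeq2. Cd4 was 0.36 and Egfr 0.18 with the replicate block. With 1 replicate left out, Cd4 ran from -0.69 to 0.79 and Egfr from -0.32 to 0.18.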

Other observations

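Mast cell genes did not move as 1 group. Kit, the stem cell factor receptor carried by mast cells and progenitors, measured 49.3 and 120 in the anti-HER2 arm and 17.3, 31.7, 22.7 and 24.9 in the anti-PD-1 arm (limma adjusted p = 0.0994). Fcer1a, the IgE receptor chain, measured 34.0 and 25.8 against 22.7, 11.5, 14.6 and 15.1 (adjusted p = 0.261). Tpsab1, a mast cell tryptase, lay the other way at 45.9 and 42.6 against 95.2, 39.7, 122 and 112 (adjusted p = 0.172). The summed markers Kit, Fcer1a and Ms4a2 were 91.8 to 154.9 in the anti-HER2 arm and 47.6 to 55.2 in the anti-PD-1 arm. That sum leaves out Tpsab1, which lay the other way, and Kit was its largest part in both anti-HER2 tumours. Ms4a2 was at background in both anti-HER2 tumours.

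Of 26 innate sensing genes tested, 21 were above 0 (69.7% over all genes) and none was called (3.16% over all genes). Without overlap 6 were higher (18.6% over all genes) and 1 lower (2.83%). The median log2 difference was 0.33 against 0.18 for all genes. Mavs, the mitochondrial adaptor for RNA sensors, measured 51.0 and 63.3 against 76.8, 78.5, 87.7 and 84.4 (adjusted p = 0.0691), the 1 lower without overlap. Nod2, a sensor of bacterial cell wall, measured 25.5 and 27.1 against 11.9, 11.5, 13.8 and 17.3 (adjusted p = 0.115).

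Outside that list, Casp8, the initiator caspase, measured 241 and 186 against 323, 257, 320 and 298 (adjusted p = 0.0690), lower without overlap. Itgb4, an integrin of epithelial basement membrane, measured 1062 and 480 against 875, 1589, 1459 and 1306 (adjusted p = 0.0691), overlapping the anti-PD-1 arm through anti-HER2 replicate 1.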
